A study of Sus scrofa with 6 samples.

Results

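Of the 43603 non-control probes on a pig expression array, 38 were detected in 1 skeletal muscle and not in the other. They were chosen by the scanner's detection mark alone: a spot well above its local background on all 3 arrays of a muscle and on none of the 3 arrays of the other, with no outlier mark on any of the 6 arrays. The rule gave 6 probes for *psoas major* muscle (PMM), called PMM-only, and 32 for *longissimus dorsi* muscle (LDM), called LDM-only, which were 0.0138% and 0.0734% of all probes. Both muscles came from female Landrace pigs fasted and slaughtered at 210 days of age, with no treatment that differed between the muscles. RNA was labelled with Cy3 and hybridized to 1 array per sample, 3 for LDM and 3 for PMM. The animals numbered 3 and were unrelated, and both muscles were taken from each, but nothing in the labels says which array belongs to which pig, so the spread between arrays stands in for the spread between samples.

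PMM is rich in slow oxidative fibres, which burn fat and glucose in many mitochondria, and LDM is rich in fast glycolytic fibres. Adult muscles also express developmental transcription factors and secreted regulators of fibre size, at levels that can differ from muscle to muscle. An array probe reads such a gene through a single short oligonucleotide, so a probe that is detected in 1 muscle says that the signal of that oligonucleotide crossed the detection mark there. In whole muscle, fewer cells of a type and less RNA per cell cannot be told apart.

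The oligonucleotides of a part of the members are shown first, all 60 bases long and read 5′ to 3′ from the array files. The 5 with the highest fold per muscle and the named probes whose gene has another probe on the array are given. Capitals mark the hexamer AATAAA, the usual polyadenylation signal, wherever a probe holds it, and in probes A_72_P219127 and A_72_P395898 they mark instead the stretch that both share. The first 5 are PMM-only and the others LDM-only.
A_72_P247052: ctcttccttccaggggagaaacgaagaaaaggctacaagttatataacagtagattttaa
A_72_P254362, described as like TKTL1: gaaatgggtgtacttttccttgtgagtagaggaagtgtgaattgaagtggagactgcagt
A_72_P198297: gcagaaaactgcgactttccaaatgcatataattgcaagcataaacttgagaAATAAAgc
A_72_P302634, DUOX1: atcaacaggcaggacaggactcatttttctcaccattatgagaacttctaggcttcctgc
A_72_P437134, described as like beta A3-crystallin: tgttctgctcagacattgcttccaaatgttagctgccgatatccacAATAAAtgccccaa
A_72_P353628: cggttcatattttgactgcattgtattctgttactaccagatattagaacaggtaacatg
A_72_P154571: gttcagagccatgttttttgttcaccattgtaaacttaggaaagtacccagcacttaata
A_72_P219127: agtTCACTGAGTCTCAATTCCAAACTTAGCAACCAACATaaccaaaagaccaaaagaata
A_72_P395898: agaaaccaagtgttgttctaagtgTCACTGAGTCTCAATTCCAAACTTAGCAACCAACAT
A_72_P123651: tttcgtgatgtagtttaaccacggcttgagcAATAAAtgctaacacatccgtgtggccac
A_72_P143151, COL11A1: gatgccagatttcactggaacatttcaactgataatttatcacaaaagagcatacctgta
A_72_P306069, OTC: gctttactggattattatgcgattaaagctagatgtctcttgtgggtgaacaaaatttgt
A_72_P174611, described as like follistatin (FST): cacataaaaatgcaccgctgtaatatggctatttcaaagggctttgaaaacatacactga
A_72_P337188, PHF7: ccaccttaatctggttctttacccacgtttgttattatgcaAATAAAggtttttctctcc
A_72_P302609, PPP2R2B: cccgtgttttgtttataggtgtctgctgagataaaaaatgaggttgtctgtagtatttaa
A_72_P035731, DLK1: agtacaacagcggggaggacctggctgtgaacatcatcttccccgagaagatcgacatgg

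In GC content and in the longest run of 1 base the members were like the array as a whole. The median GC content was 40% for the PMM-only probes, 38.3% for the LDM-only probes and 40% over all 43603 probes, and the median longest run of 1 base was 4 in each. AATAAA stood in 2 of the 6 PMM-only probes (33.3%) and 3 of the 32 LDM-only probes (9.38%), against 12.1% of all probes. The 6 PMM-only probes are too few for a comparison of shares. Its reverse complement TTTATT stood in none of the members and in 4.63% of all probes. A gene name from the reference table was held by 1 of the 6 PMM-only and 5 of the 32 LDM-only probes, which is 15.6% of the latter, against 11.5% of all probes. Positions in the genome are not given here, since the files mark the probes as unmapped.

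The arrays did not share a detection limit. The lowest signal marked as detected was 9.21 units on LDM replicate 1 and between 19.3 and 28.2 units on the other 5 arrays, so the same signal could count as detected on LDM replicate 1 and as not detected elsewhere. Of the probes without an outlier mark, 23697 were detected on all 6 arrays and 10202 on none. The share of probes detected ran from 58.4% on LDM replicate 3 to 72.4% on LDM replicate 1. Of the 32 LDM-only probes, 17 had a normalized signal on LDM replicate 1 that was under the detection limit of PMM replicate 1. With 1 limit set for all 6 arrays, the highest of the 6 on the normalized scale, 33 probes were PMM-only and 20 LDM-only, of which 4 and 11 were among the members described here. The excess of LDM-only over PMM-only probes turned round under that limit. Normalized signal here is log2 of the processed signal minus the 75th percentile of its array, and unit means the processed signal of the scanner program.

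The PMM-only probes were dim, and 5 of the 6 had no overlap between the muscles. Their signals in PMM ranged from 25.0 to 101 units, near the middle of the array, with a median rank at the 41.7th percentile of all probes. The brightest, A_72_P247052, is designed on an expressed sequence tag (EST) with no gene name. It read 9.93, 7.65 and 5.87 units on LDM replicates 1, 2 and 3 and 101, 81.7 and 41.4 units on PMM replicates 1, 2 and 3. Every PMM array was far above every LDM array, and the signal was at least 4.26-fold higher in PMM. Such folds count each array of the other muscle at no less than its lowest detected signal. Higher signals could still be marked as not detected, up to 12.8, 26.6 and 36.7 units on LDM replicates 1, 2 and 3. On PMM replicates 1, 2 and 3 they reached 29.2, 28.1 and 36.2 units. The at-least folds are therefore not strict lower bounds.

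The probe described as like transketolase-like protein 1 (TKTL1), a relative of an enzyme of the pentose phosphate pathway, was the next. It read 4.02, 6.33 and 5.94 units in LDM and 39.3, 37.2 and 49.8 units in PMM, so the 3 arrays of each muscle lay close together. It was at least 2.61-fold higher in PMM. The other probe described as TKTL1 was detected on all 6 arrays, at 287, 420 and 194 units in LDM and 227, 437 and 246 units in PMM. Its muscles overlapped, with a difference of 0.12 log2 units (PMM minus LDM).

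DUOX1, an enzyme that makes hydrogen peroxide at the cell membrane, was read by A_72_P302634 at 6.58, 8.64 and 6.50 units in LDM and 41.0, 35.6 and 27.0 units in PMM. The muscles did not overlap, and the signal was at least 2.12-fold higher in PMM. The second DUOX1 probe read 20.7, 33.2 and 15.7 units in LDM and 19.5, 26.3 and 13.8 units in PMM. That probe was detected on 2 LDM arrays and 1 PMM array and showed the muscles overlapping, so the 2 oligonucleotides of DUOX1 did not give the same picture.

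Beta A3-crystallin, best known as a lens protein, was read at 2.53, 10.6 and 8.92 units in LDM and 28.4, 39.3 and 30.1 units in PMM, at least 2.01-fold higher in PMM. The last pair of PMM-only probes lay near the limit. A_72_P198297, with no description, read 11.3, 22.0 and 25.2 units in LDM and 30.1, 39.6 and 48.0 units in PMM, at least 2.15-fold higher in PMM. A_72_P297589, on an EST, read 8.95, 18.6 and 22.3 units in LDM and 33.7, 25.0 and 28.8 units in PMM and overlapped between the muscles after normalization. A second probe on the same EST shared 34 bases with it and was detected on none of the arrays.

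Among the LDM-only probes, 1 stood far above the others. A_72_P353628, on an EST with no gene name, read 740, 734 and 433 units on LDM replicates 1, 2 and 3 and 22.0, 20.2 and 6.30 units on PMM replicates 1, 2 and 3. All LDM arrays were well over the PMM arrays, and the signal was at least 25.9-fold higher in LDM. A_72_P154571, with no description, read 212, 267 and 66.1 units in LDM and 4.66, 10.54 and 5.21 units in PMM, at least 6.58-fold higher in LDM. LDM replicate 3 was the lowest LDM array for both probes and still lay clear of PMM.

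A_72_P219127 and A_72_P395898 share the 36 bases shown in capitals above, so they are not independent readings. The first read 76.1, 168 and 52.3 units in LDM and 4.76, 8.49 and 5.37 units in PMM. The second read 49.6, 152 and 42.6 units in LDM and 4.97, 4.86 and 5.25 units in PMM. LDM replicate 2 was the highest array on both, no array overlapped between the muscles, and they were at least 3.71-fold and 2.90-fold higher in LDM. A_72_P123651 is described by a likeness to a bacterial protein over a small part of its length. It read 264, 27.4 and 52.3 units in LDM and 5.05, 13.4 and 5.71 units in PMM, so LDM replicate 1 carried most of its mean.

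Collagen XI alpha 1 (COL11A1), a fibrillar collagen of cartilage and tendon, had the highest fold of the LDM-only probes with a gene name. A_72_P143151 read 77.0, 68.8 and 53.1 units in LDM and 10.4, 20.9 and 5.09 units in PMM, with no overlap, and at least 2.78-fold higher in LDM. The summed normalized signal of the 6 measured fibroblast and tendon markers was also lower in PMM in each pair of replicates, at 100, 167 and 225 in LDM and 71.6, 132 and 153 in PMM. Most of each sum, taken on the linear scale, came from DCN alone. Its normalized signals were 6.54, 7.31 and 7.75 in LDM and 6.08, 6.99 and 7.22 in PMM. Taken singly, each of the 6 markers was lower in PMM in each pair. Of that list, TNMD, a marker of tendon cells, had normalized signals of 0.01, -0.86 and -0.49 in LDM and -2.47, -2.14 and -4.27 in PMM, and POSTN, a matrix protein, 0.71, 1.57 and 2.11 in LDM and -1.39, 0.49 and 0.39 in PMM. Their part in the COL11A1 difference was not tested. The second COL11A1 probe was detected on none of the 6 arrays, between 4.26 and 5.91 units. Only 1 of the 2 oligonucleotides of COL11A1 was therefore detected on any array.

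Genes that regulate transcription supplied 4 of the LDM-only probes and none of the PMM-only probes, where the same words marked 0.979% of all probes; this is a count, not a test. The probe described as like IRX1, a homeodomain factor of the Iroquois class, read 44.0, 48.6 and 60.8 units in LDM and 4.67, 4.93 and 23.4 units in PMM, at least 2.15-fold higher in LDM. PHF7, a protein with a PHD finger, read 39.2, 36.7 and 32.1 units in LDM and 8.28, 22.3 and 16.01 units in PMM, at least 1.502-fold higher in LDM. Both had no overlap between the muscles, and IRX1 had its highest PMM value on replicate 3. The second PHF7 probe, at 20.7, 45.6 and 17.3 units in LDM and 13.0, 31.0 and 16.2 units in PMM, overlapped.

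The other regulators overlapped between the muscles. The probe described as like SERTAD2, a transcriptional co-regulator, read 14.6, 25.4 and 95.4 units in LDM and 6.15, 21.2 and 5.38 units in PMM. The probe described as ASCL2, a basic helix-loop-helix factor, read 15.3, 29.7 and 38.5 units in LDM and 16.4, 23.6 and 30.5 units in PMM. ASCL2 was therefore LDM-only by its detection marks while its signal differed by -0.09 log2 units (PMM minus LDM). No fold is given for it, nor for A_72_P143141 and A_72_P267072, since their bounds were under 1.

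Signalling genes supplied 3 LDM-only probes, with the same words in 4.40% of all probes. Follistatin (FST) binds activin and myostatin and so relieves their brake on muscle growth. The FST-like probe A_72_P174611 read 33.8, 62.9 and 34.8 units in LDM and 8.49, 22.4 and 20.9 units in PMM, with no overlap, at a level at least 1.76-fold that in PMM. Of 4 further probes of FST, 3 were detected on all 6 arrays and 1 on none. The brightest of them read 3750, 16782 and 11294 units in LDM and 1941, 9032 and 5247 units in PMM. All 3 detected probes were lower in PMM than in the LDM array of the same replicate number in 3 of 3 pairs, with mean differences of -0.65, -0.89 and -0.76 log2 units. The muscles overlapped in each, and the range over the LDM replicates exceeded the mean difference. On these probes FST was well above the detection limit on every PMM array.

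DLK1, a membrane ligand related to Delta that is imprinted and active in growing muscle, was read by A_72_P035731 at 21.8, 36.0 and 38.2 units in LDM and 22.2, 24.4 and 23.6 units in PMM. The muscles overlapped. Another DLK1 probe read 189, 526 and 788 units in LDM and 161, 315 and 431 units in PMM, detected on all arrays and lower in PMM in 3 of 3 pairs, with a mean difference of -0.52 log2 units. The third, at 27.9, 25.1 and 37.8 units in LDM and 28.1, 29.2 and 33.9 units in PMM, differed by 0.12 log2 units, and the fourth was detected on LDM replicate 1 alone. PPP2R2B, a regulatory subunit of protein phosphatase 2A, read 22.5, 37.0 and 36.9 units in LDM and 10.6, 20.02 and 18.3 units in PMM without overlap, and its second probe was detected on none of the arrays.

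Words for contractile and cytoskeletal proteins marked 2 LDM-only probes and 0.791% of all probes. Neither member is a contractile protein. ARVCF, a catenin of cell junctions, was read by its likeness probe at 28.0, 25.1 and 30.6 units in LDM and 10.0, 11.1 and 15.2 units in PMM, with no overlap and at least 1.18-fold higher in LDM. CEP72, a centrosomal protein, read 10.97, 50.2 and 46.8 units in LDM and 13.7, 14.3 and 15.1 units in PMM, and LDM replicate 1 lay under every PMM array in units. OTC, a urea cycle enzyme made chiefly in liver and gut, read 21.6, 48.7 and 95.2 units in LDM and 12.7, 25.3 and 16.1 units in PMM. The groups of OTC overlapped in units and also after normalization, where the gap was -0.01 log2 units. Its second probe was detected on none of the arrays.

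Of the 32 LDM-only probes, 11 had a gene name or a likeness to a named gene of an animal. Beyond those and the 5 with the highest fold, 16 LDM-only probes were left, of which A_72_P267072 is likened to an unnamed protein of a choanoflagellate, and most of the others rest on ESTs from libraries of several tissues. They read 10.48 to 404 units in LDM and 4.35 to 30.2 units in PMM. The muscles did not overlap for 5 of them and overlapped for 11. A fold could be given for 14 of them and ran from at least 1.14 to at least 2.19. LDM replicate 3 was the brightest LDM array for 13 of the 16.

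LDM replicate 3 was the brightest LDM array for 21 of the 32 LDM-only probes and led the next LDM array by at least 1 log2 unit for 9 of them. The clearest case was the cDNA AK232894, cloned from liver. Its member A_72_P331273 read 10.51, 24.6 and 404 units in LDM and 14.9, 19.4 and 9.37 units in PMM. Its other probes read 126 and 447 units on LDM replicate 3 and at most 5.39 units on every other array. All 3 probes of this cDNA were thus bright on a single array. On that array the fibroblast and tendon sum was the highest of the 6, most of it from DCN, at a normalized signal of 6.54, 7.31 and 7.75 on LDM replicates 1, 2 and 3, whereas COL3A1 was lowest there among the LDM arrays, at 1.99, 1.84 and 1.42. The sum of 8 leukocyte markers was 4.46, 10.03 and 18.8 in LDM and 5.92, 10.9 and 16.8 in PMM, and that of 5 endothelium markers 53.0, 92.1 and 162 in LDM and 90.4, 106 and 156 in PMM. The leukocyte and endothelium sums were thus high on replicate 3 of both muscles and not on LDM replicate 3 alone. The sum of 4 epithelium and mesothelium markers was 0.256, 0.323 and 0.505 in LDM and 0.228, 0.305 and 0.205 in PMM. It was highest on LDM replicate 3 and lowest on PMM replicate 3, and 1 of the 4 was detected on all 6 arrays. For 2 nerve and Schwann cell markers the sum was highest on replicate 3 of each muscle, at 10.48 in LDM and 7.75 in PMM. Within each muscle the fibroblast and tendon sum was also highest on replicate 3, at 225 in LDM and 153 in PMM. The part of these differences in the LDM-only probes was not tested.

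Over the 25724 tested probes with a value on all 6 arrays, the median difference was -0.04 log2 units (PMM minus LDM). It was 2.41 for the 6 PMM-only probes and -1.28 for the 32 LDM-only probes. With normexp background correction the medians were 0.74 and 0.13, so that of the LDM-only probes turned round. This setting used raw spot and background signals without the scanner program's trend correction, and added an offset of 50 units. The offset exceeded the median LDM-only signal on each LDM array, at 23.2, 36.7 and 46.9 units. It compresses the log2 differences of dim probes, and its part in the reversal was not tested. Without LDM replicate 3 the LDM-only median was -0.72. By replicate number, which is also the scan day, the medians were 3.15, 2.12 and 1.85 for the PMM-only probes and -1.05, -0.76 and -1.64 for the LDM-only probes. Replicates 2 and 3 are also within-slide comparisons, since both muscles of those numbers lay on the same slide. All 6 PMM-only probes were higher in PMM in all 3 pairs, while 23 of the 32 LDM-only probes were higher in LDM in 3 pairs, 8 in 2 and 1 in fewer. The values selected the members, so these are descriptions and no test was made of them.

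The groups did not overlap for 5 of the 6 PMM-only and 16 of the 32 LDM-only probes, where 3.07% and 2.87% of 25724 probes had all PMM values above all LDM values and the reverse. In a limma comparison of the muscles over 25834 detected probes, 8 probes passed an adjusted p of 0.05, 3 higher in PMM (0.0116%) and 5 lower (0.0194%). Of these 8, 5 were members: the TKTL1-like probe, A_72_P353628, A_72_P154571, A_72_P219127 and A_72_P395898. With the replicate number as a block, 17 passed, 8 higher (0.031%) and 9 lower (0.0348%), and again 5 were members, 4 of them the same. These counts rest on the same arrays that selected the members and are no support for them. They also rest on how the arrays were scaled, and 0 members passed when outlier spots were left out of the 75th percentile (limma, 691 probes at an unadjusted p under 0.05).

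The detection mark is strict, and not detected does not mean no signal. Of the 6 PMM-only probes, 4 were significantly above background by the scanner's milder mark on all 3 LDM arrays, and of the 32 LDM-only probes, 21 were so on all 3 PMM arrays. The members nearest to the rule's edge show how narrow it is. Among LDM-only probes the ASCL2 probe, A_72_P021801 and A_72_P331273 had gaps of -0.98, -0.81 and -0.70 log2 units, the lowest LDM signal minus the highest PMM signal, so their muscles overlapped most. Just outside, 163 probes were detected on all LDM arrays and on 1 PMM array, of which A_72_P206827, A_72_P224447 and A_72_P300014 passed that array's limit by 0.02, 0.06 and 0.07 log2 units.

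On the PMM side, A_72_P297589, A_72_P198297 and the beta A3-crystallin probe were the nearest inside, with gaps of -0.10, 0.38 and 1.70 log2 units. Just outside lay 10 probes detected on all PMM arrays and on 1 LDM array. The nearest were A_72_P364823, A_72_P045711 and a probe of MMP12, a matrix metalloproteinase of macrophages, which passed the limit of that LDM array by 0.36, 0.61 and 0.64 log2 units.

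Counting any likeness to a protein as a name, A_72_P267072 and A_72_P123651 included, 3 of the 6 PMM-only and 19 of the 32 LDM-only probes had no name, as had 67.0% of all probes. No member was described by a word for the immune system, for channels and transporters, or for nucleic acid and protein processing, words that marked 0.867%, 1.16% and 1.69% of all probes. Metabolic words marked 2 PMM-only probes and 1 LDM-only probe, the last being the likeness to a bacterial protein, and 3.46% of all probes. The LDM-only probe of OTC, a urea cycle enzyme, is described as a liver clone and was not marked by these words. The labelled tissue was checked because the text on RNA extraction speaks of adipose tissue. All 12 measured skeletal muscle markers were detected on all 6 arrays, and their summed normalized signal was 5487 to 9049 in LDM and 6578 to 10508 in PMM. The sum of 8 adipocyte markers was 86.0 to 258 in LDM and 76.1 to 261 in PMM. No measured marker of any of the 10 lists was a member.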

How the data were processed

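The authors deposited linear Cy3 intensity per spot from Agilent Feature Extraction 10.5.1.1, with local background subtracted, trends corrected and spots marked as detected or as outliers, but not normalized between arrays. The deposited value table held the same intensity values, with differences of at most 0.005 units. The workflow before deposit is given in the paper only by reference.

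From these, outlier spots were left out, repeated spots averaged, and each deposited intensity was put on a log2 scale relative to its own array, whose 75th percentile over all non-control spots was subtracted. Several definitions of that percentile were tried, and this one was kept after their counts of calls had been seen. PMM and LDM values entered a limma fit (limma 3.58.1, R 4.3.3, two-sided, Benjamini-Hochberg, threshold 0.05), over probes detected on all 3 arrays of either muscle with at least 2 values per muscle. The fit was checked on simulated data. At-least folds set the bright muscle's mean against, per array of the other, the higher of the probe's signal and the lowest detected signal. They are not strict lower bounds, since some higher signals were marked as not detected. RefSeq names were found for 5019 probes. Members with a name or a likeness to a named gene, the 5 per muscle with the highest fold, the members called and the 3 nearest the rule on either side were named. The members and lists were chosen with earlier results of these data known.

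Deviations from the muscle means correlated at 0.62, 0.70 and 0.56 between arrays of the same replicate number. By a minimum of 0.1 the numbers were therefore taken as pairs in the comparisons by replicate number. The main limma fit did not use the pairing, and the replicate block was an alternative to it. The replicate numbers coincide with the scan day. The number of arrays limits the precision. Alternatives covered the detection mark, outlier spots, scaling, background correction, filters, slide, replicate block and single arrays.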

Additional observations from a re-analysis of the deposited data

How the results depend on the processing

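The number of PMM-only probes, 6, became 2 with the 95th percentile of the negative controls as limit and 33 with 1 limit for all arrays, and 6 to 26 without 1 array (13 without LDM replicate 1, and 19, 16 and 26 without PMM replicates 1, 2 and 3). The number of LDM-only probes, 32, became 71 with the milder mark, 6 with a margin of 1 log2 unit, 16 without overlap and 20 with 1 limit, and 45 to 654 without 1 array (71 and 654 without LDM replicates 2 and 3, 129 and 85 without PMM replicates 2 and 3). Leaving out an array removes a condition, so these counts cannot fall. The milder mark and the limit from the negative controls, which gave 23 LDM-only probes, each kept 0 of the PMM-only and 1 of the LDM-only members.

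The 8 calls of limma over all probes became 7 with quantile normalization and 9 with median centring. They became 17 with the replicate block, 300 with slide as a random block and 1 with normexp. They became 0 when the 75th percentile was taken only from probes seen on all 6 arrays, without a detection filter, with detection on all 6 arrays or with outlier spots kept, and 0 to 1 without any 1 array (537 to 1241 probes at an unadjusted p under 0.05). The 5 calls among members became 18 with slide as a block, 0 with normexp and in the other settings that gave 0, and 0 to 1 without any 1 array. They stayed 5 with quantile normalization and with median centring. Of the definitions of the percentile tried after seeing the data, 2 that leave out outlier spots gave 0 calls and 0 among members, and 1 over averaged probes with outlier spots gave 6 and 4. The adjusted p-values thus lay at the threshold. The 1 limit for all arrays was also chosen after seeing the data.

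The median difference of the PMM-only probes, 2.41, was 0.74 with normexp and 2.11 to 2.58 without 1 array. That of the LDM-only probes, -1.28, was -1.63 to -0.72 without 1 array, the last without LDM replicate 3. With normexp and its offset of 50 units this median turned to 0.13, where the cause was not tested. Of the LDM-only members, 24 changed sign under at least 1 of 14 settings, and of the PMM-only members none did. Each of these 24 changed sign with normexp. Apart from normexp, only A_72_P000781 and the ASCL2 probe changed sign, when single arrays were left out.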
